A study of Mus musculus with 24 samples.

Results

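The genes described here make, remove and read out retinoic acid (RA). They are the 3 retinaldehyde dehydrogenases Aldh1a1, Aldh1a2 and Aldh1a3, the 3 RA hydroxylases Cyp26a1, Cyp26b1 and Cyp26c1, the 3 RA receptors Rara, Rarb and Rarg, and the cellular RA-binding protein Crabp2. They were taken by symbol from the gene table of a calibrated RNA-seq (cRNA-seq) experiment, 10 of the 19409 symbols in it. The table has 1 row per transcript (20633 rows), and 13 rows carry these symbols. Where a symbol had several rows, the one with the largest sum over the 12 libraries was used. A row was tested if it had at least 10 reads in at least 3 libraries, which 16940 rows did. Of the 10 genes, 9 were tested, and each of those 9 had at least 10 reads in all 12 libraries. The exception was Aldh1a1.

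The experiment asked what happens to gene expression when Polycomb repressive complex 1 (PRC1) is lost, and when PRC1 is kept but can no longer ubiquitylate histone H2A. Both mouse embryonic stem cell (ESC) lines derive from E14 and carry ERT2-Cre at Rosa26, which 4-hydroxytamoxifen (OHT) activates. Each line is 1 clone, and the cells were grown on gelatin in serum with LIF. PRC1CKO cells (clone B9) are Ring1a-/- with Ring1b fl/fl, so that OHT removes the first coding exon of Ring1b and with it the last PRC1 catalytic subunit. PRC1CPM cells (clone 41) carry the substitutions I50A and D53K in Ring1a and a floxed Ring1b that OHT switches from wild type to I53A and D56K, which leaves PRC1 without catalysis. Untreated PRC1CKO cells therefore already lack RING1A, and untreated PRC1CPM cells already carry an inactive RING1A. The groups are untreated PRC1CKO, PRC1CKO with 800 nM OHT for 72 h, untreated PRC1CPM, and PRC1CPM with the same OHT treatment, with 3 biological replicates of each. No group of cells without the engineered alleles received OHT.

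RA is made from retinol by way of retinaldehyde, and the last step, from retinaldehyde to RA, is catalysed by the ALDH1A enzymes and is irreversible. CYP26 enzymes oxidise RA to more polar products and so limit where and for how long it acts. RA enters the nucleus with CRABP2 and binds an RA receptor, which sits on DNA as a heterodimer with a retinoid X receptor (RXR). RA is a classical inducer of ESC differentiation, and Cyp26a1 and Rarb are textbook direct targets of its receptors. Many developmental genes that RA regulates are also classical targets of Polycomb repression in ESCs.

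The receptors bind paired half-sites, often direct repeats 5 bases apart (DR5). Promoter sequences were taken from RefSeq on GRCm38, from 250 bases before to 50 bases after each annotated start. They covered 8 of the 10 genes with 13 entries. Aldh1a3 and Crabp2 had none. The half-site AGGTCA was searched with its known variants (AGTTCA, or GGGTCA, or else GGTTCA) on both strands, as repeats 5 or 2 bases apart. A DR5 was found in 0.0974% of all 32851 promoters, a repeat with 2 bases between in 0.268%. Among the 13 entries, a DR5 was found in that of Cyp26a1 and in that of the shorter Rarb row, and no repeat with 2 bases between was found. The 150 bases before these starts are shown with the repeat in capitals, because these genes are the 2 members with such a match. Cyp26a1 lies on chr19:37697658-37697807 (plus strand), and its repeat spans 32 to 16 bases before the start. Rarb lies on chr14:16575477-16575626 (minus strand), and its repeat spans 53 to 37 bases before the start.
Cyp26a1: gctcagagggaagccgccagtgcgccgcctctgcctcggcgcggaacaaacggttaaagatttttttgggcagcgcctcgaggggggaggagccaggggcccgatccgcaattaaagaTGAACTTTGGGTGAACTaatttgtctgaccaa
Rarb: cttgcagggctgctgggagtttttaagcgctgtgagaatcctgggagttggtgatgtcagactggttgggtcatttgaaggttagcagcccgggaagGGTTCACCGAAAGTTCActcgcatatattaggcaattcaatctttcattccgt

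The promoters also differed in CpG dinucleotides, the sequence feature that marks the CpG islands at which Polycomb complexes are found in ESCs. The median over all promoters was 7 CpG in 300 bases. The Aldh1a2 promoter held 50, and only 0.855% of promoters held as many. Cyp26a1 held 26, the promoter at the start of the longer Rara row 20, that of the shorter Rarb row 17, and those of the 2 Rarg rows 12 and 10. Cyp26b1 held 9, Cyp26c1 5, and the 2 Aldh1a1 entries 3 and 1. Counts in 300 bases do not show whether a CpG island lies nearby, and a link of CpG content to expression was not tested. Aldh1a2 (chr9:71215639-71215788, plus strand) and Cyp26b1 (chr6:84593811-84593960, minus strand) are shown with each CpG in capitals, as 2 genes that rose in both lines, chosen with their values known. In these 150 bases Aldh1a2 has 23 CpG and Cyp26b1 has 5.
Aldh1a2: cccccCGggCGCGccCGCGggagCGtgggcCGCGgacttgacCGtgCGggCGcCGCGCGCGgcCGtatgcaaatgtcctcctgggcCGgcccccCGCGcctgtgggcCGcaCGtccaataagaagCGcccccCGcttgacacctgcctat
Cyp26b1: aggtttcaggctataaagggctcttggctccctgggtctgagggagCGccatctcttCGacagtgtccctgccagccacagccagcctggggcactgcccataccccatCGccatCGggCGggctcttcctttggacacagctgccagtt

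The values are normalised read counts: reads over a gene body, introns included, divided by 1 size factor per library that the authors derived from spiked-in Drosophila cells. Whole reads were recovered from these values, and the libraries held between 14668159 and 27016156 reads on genes. The engineered genes were read first. Ring1, which encodes RING1A, had 313, 204 and 166 normalised reads in untreated PRC1CKO cells (replicates 1, 2 and 3) and 281, 251 and 229 after OHT. The PRC1CPM libraries had 179, 182 and 125 untreated and 161, 111 and 148 after OHT. Rnf2, which encodes RING1B, had 1756, 1436 and 1385 in untreated PRC1CKO cells and 1489, 1565 and 1585 after OHT. PRC1CPM cells held 1850, 1659 and 1578 untreated and 1724, 1295 and 1513 after OHT. The alleles remove or change only some exons while the counts run over the whole gene body, so these levels do not check the genotypes. Neither gene was called in either line after OHT.

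Of the 9 genes tested, 5 were called higher in PRC1CKO cells after OHT and 1 was called lower. A row was called where limma, run on all 16940 rows, gave it a fold change over 1.5 with an adjusted p below 0.05. For the interaction of line and treatment, described below, rows were counted as called on the adjusted p alone. Aldh1a2, Aldh1a3, Cyp26a1, Cyp26b1 and Rarb rose, and Rara fell. In PRC1CPM cells Aldh1a2, Aldh1a3, Cyp26b1 and Rarb rose, and none of the 9 was called lower, with none lower at an unadjusted p under 0.05 and none called lower by edgeR or DESeq2. Of all rows, 16.5% were called higher and 3.09% lower in PRC1CKO cells, and 13.1% higher and 1.4% lower in PRC1CPM cells. In PRC1CKO cells 2787 rows were called higher and 524 lower, and with TMM scaling in place of the spike-in 2845 and 1133. In PRC1CPM cells these counts were 2226 and 237, and with TMM 2396 and 595. The median log2 fold change of the 9 genes was 1.01 in PRC1CKO and 0.94 in PRC1CPM cells, against 0.12 and 0.10 over all rows tested. The fold change was above 0 for 8 of the 9 in each line, against 61.1% and 62.0% of all rows. Every treated library was above every untreated one for 6 of the 9 in PRC1CKO and 5 in PRC1CPM cells, against 22.1% and 18.7% of all rows, and below for 1 and 0, against 8.52% and 3.70%. The 2 comparisons share no library.

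Aldh1a2, the main RA-synthesising enzyme of the early embryo, rose in both lines. It lies on chromosome 9 (71215789 to 71296243, plus strand, 14 exons). In PRC1CKO cells it had 71.5, 50.8 and 55.8 normalised reads untreated and 362, 271 and 332 after OHT. For the PRC1CPM line the values were 71.6, 64.1 and 97.6 untreated and 297, 225 and 445 after OHT. In both lines every OHT-treated library was above every untreated one. The log2 fold change was 2.42 (SE 0.31, adjusted p = 1.46e-08 by limma) in PRC1CKO cells, a 5.36-fold rise. In PRC1CPM cells it was 2.00 (SE 0.31, adjusted p = 2.46e-06), a 4.01-fold rise. The means after OHT were 322 ± 46.1 (SD, n = 3) in PRC1CKO and 322 ± 112 in PRC1CPM cells.

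Aldh1a3, the form best known from the eye and nasal region, rose from a lower and more scattered level. It lies on chromosome 7 (66390893 to 66427477, minus strand, 13 exons). It had 44.7, 16.9 and 8.46 normalised reads in untreated PRC1CKO cells and 101, 79.6 and 64.6 after OHT. Its PRC1CPM values were 69.0, 23.6 and 16.3 untreated and 139, 78.9 and 93.1 after OHT. The groups did not overlap in either line, although replicate 1 was the highest untreated library in both. OHT changed it on the log2 scale by 2.04 (SE 0.46, adjusted p = 0.00057 by limma) in PRC1CKO cells and 1.72 (SE 0.46, adjusted p = 0.0058) in PRC1CPM cells. Without untreated replicate 1 of the line the change was 2.64 in PRC1CKO and 2.30 in PRC1CPM cells, against 2.56 and 1.96 for Aldh1a2. Replicate 1 was also the highest OHT-treated library in both lines, and that fit keeps it. With all libraries numbered 1 left out, the change was 2.48 and 2.07, against 2.47 and 1.99 for Aldh1a2. Leaving out each library in turn gave Aldh1a3 1.51 to 2.64 in PRC1CKO cells, where it was called each time. The call in PRC1CPM cells was lost without untreated replicate 3 (1.29, adjusted p = 0.084) and without OHT replicate 1 (1.49, adjusted p = 0.056).

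Aldh1a1, the form of the adult liver and retina, was close to silent. It lies on chromosome 19 (20601982 to 20643462, plus strand). It had 2 reads in the 3 untreated PRC1CKO libraries together and 12 after OHT, which is 1 and 6 read pairs if both mates of a pair were counted. The ratio per size factor was 5.68 (exact 95% counting interval on pairs 0.69 to 261), so this difference was not detectable at this depth. The other line, PRC1CPM, had 2 reads untreated and 32 after OHT, or 1 and 16 pairs, a ratio of 12.7 (1.98 to 534). All 12 libraries had an even number of Aldh1a1 reads, and 80.2% of all values from 1 to 20 reads were even. Intervals of this kind cover counting error only, not the spread between replicates. As normalised counts it was at 2.98, 0 and 0 in untreated PRC1CKO cells and 3.62, 5.55 and 1.74 after OHT, so these groups overlapped. In PRC1CPM cells it was at 2.56, 0 and 0 untreated and 11.6, 6.19 and 13.1 after OHT, without overlap. It entered the test only with no filter on low counts, where limma gave adjusted p = 0.0029 in PRC1CPM and 0.14 in PRC1CKO cells.

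**Figure D1:**
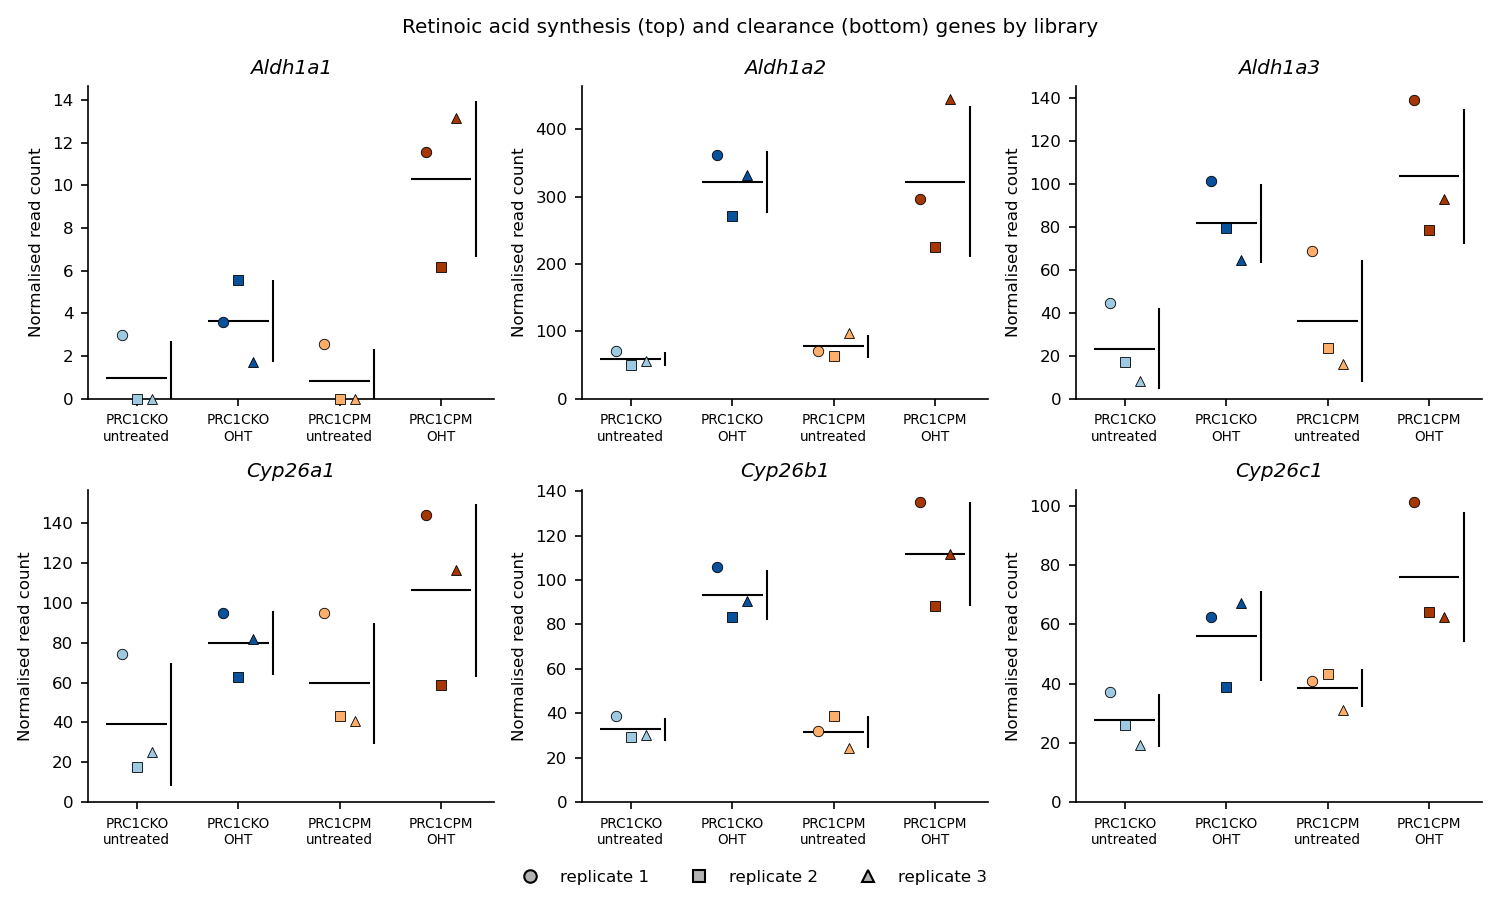
Normalised read counts (y axes, linear, from 0) of the 3 Aldh1a genes (top) and 3 Cyp26 genes (bottom) in each of the 12 libraries, by line and treatment. Symbols mark replicate 1 (circle), 2 (square) and 3 (triangle), horizontal lines the means of 3 and vertical bars 1 SD on each side, stopped at 0. Aldh1a2, Aldh1a3, Cyp26b1 and Cyp26c1 separate treated from untreated libraries in both lines, while the replicate 1 circle of untreated Cyp26a1 sits within the treated range.

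The Cyp26 genes clear RA, and Cyp26b1 rose in both lines. Cyp26b1 (chromosome 6, 84571414 to 84593810, minus strand, 7 exons) is the form of the limb bud, hindbrain and fetal testis. It had 38.7, 29.2 and 30.4 normalised reads in untreated PRC1CKO cells and 106, 83.3 and 90.7 after OHT. The PRC1CPM libraries had 32.0, 38.6 and 24.4 untreated and 135, 88.1 and 112 after OHT. Treated and untreated libraries did not overlap in either line. Limma gave a log2 fold change of 1.48 (SE 0.37, adjusted p = 0.0019) in PRC1CKO cells and 1.79 (SE 0.37, adjusted p = 0.00027) in PRC1CPM cells.

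Cyp26a1 and Cyp26c1 lie in tandem on the plus strand of chromosome 19, Cyp26c1 (37685680 to 37693307) ending 4.5 kb before Cyp26a1 (37697808 to 37701536). Cyp26a1 is the form most readily induced by RA. It had 74.5, 17.7 and 25.4 normalised reads in untreated PRC1CKO cells and 94.9, 62.9 and 82.0 after OHT. PRC1CPM cells held 94.6, 43.4 and 40.7 untreated and 144, 58.8 and 116 after OHT. Untreated replicate 1 lay above the lowest treated library in both lines, so the groups overlapped, but each treated library was above the untreated one of its number. The log2 fold change was 1.26 (SE 0.42, adjusted p = 0.027 by limma) in PRC1CKO cells and 0.84 (SE 0.42, adjusted p = 0.23) in PRC1CPM cells. With the replicate number as a block, Cyp26a1 was called higher in PRC1CPM cells as well (adjusted p = 0.013), and so it was without untreated replicate 1 (1.22, adjusted p = 0.034). In PRC1CKO cells the call was lost with edgeR (1.10, adjusted p = 0.058), with DESeq2 (1.08, adjusted p = 0.093), with no filter (adjusted p = 0.082) and without any one of untreated replicates 2 and 3 and OHT replicates 1 and 3 (adjusted p from 0.066 to 0.18). Leaving out 1 library at a time gave 0.84 to 1.85 in PRC1CKO cells, the highest without untreated replicate 1 (adjusted p = 0.00051 by limma).

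Cyp26c1, the least studied of the 3 hydroxylases, did not pass the test in either line. It had 37.2, 26.2 and 19.4 normalised reads in untreated PRC1CKO cells and 62.4, 38.9 and 67.2 after OHT. For the PRC1CPM line the values were 40.9, 43.4 and 31.2 untreated and 101, 64.2 and 62.4 after OHT. In both lines every treated library was above every untreated one. Limma gave a log2 fold change of 1.01 (SE 0.40, adjusted p = 0.072) in PRC1CKO cells and 0.94 (SE 0.40, adjusted p = 0.12) in PRC1CPM cells. With the replicate block it was called higher in PRC1CPM cells (adjusted p = 0.013). TMM scaling also called it in both lines, with 0.89 (adjusted p = 0.019) in PRC1CKO and 0.83 (adjusted p = 0.033) in PRC1CPM cells. In PRC1CKO cells it was called by DESeq2 (adjusted p = 0.033) and without untreated replicate 1 (1.24, adjusted p = 0.021) too.

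**Figure D2:**
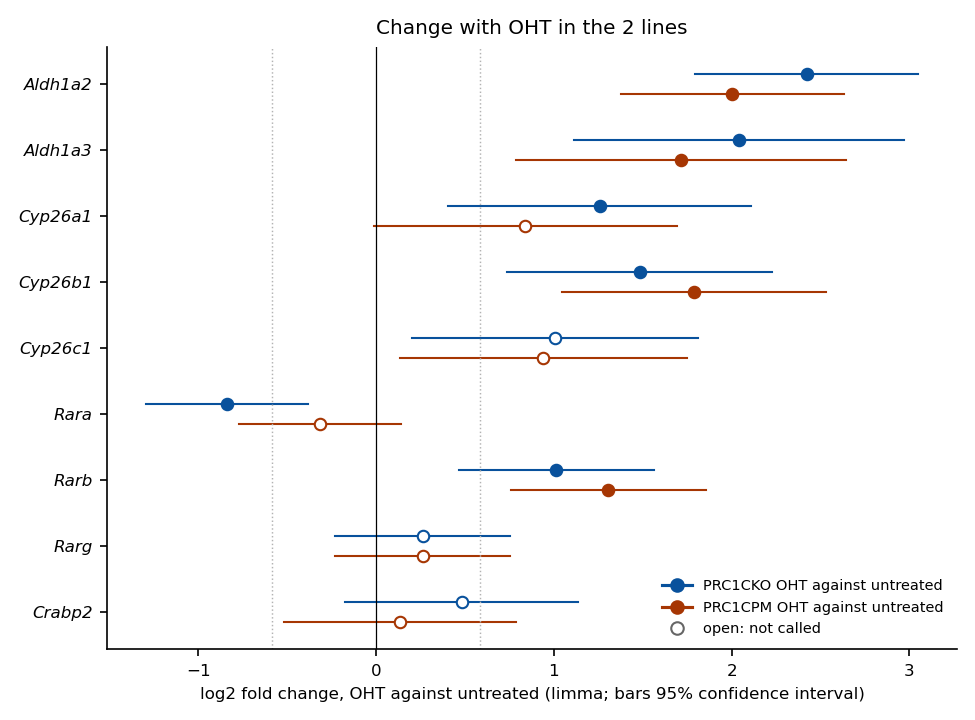
Log2 fold change after OHT (x axis, limma) of the 9 genes tested, in PRC1CKO (blue) and PRC1CPM (brown) cells, with 95% confidence intervals as bars. Filled points were called, dotted lines mark a 1.5-fold change either way, and Rara is the only gene whose points lie below 0, at -0.84 and -0.32.

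The 3 receptors went different ways. Rara, the most broadly expressed receptor, lies on chromosome 11 (98937696 to 98974942, plus strand, 9 exons). It had 1621, 1249 and 1419 normalised reads in untreated PRC1CKO cells and 800, 705 and 892 after OHT. Its PRC1CPM values were 2019, 1371 and 1735 untreated and 1757, 1021 and 1389 after OHT. All treated PRC1CKO libraries were below all untreated ones, whereas the PRC1CPM groups overlapped, although each treated PRC1CPM library was below the untreated one of its number. OHT changed it on the log2 scale by -0.84 (SE 0.23, adjusted p = 0.0046 by limma) in PRC1CKO cells. In PRC1CPM cells it was -0.32 (SE 0.23, 95% confidence interval -0.77 to 0.14, adjusted p = 0.49, and 0.066 with the replicate number as a block). With TMM it was -0.42 (adjusted p = 0.0098), which passes the p threshold but not the 1.5-fold one, and over all alternatives the adjusted p ranged from 0.0098 to 0.82. The difference between these changes, 0.52 (SE 0.32), did not pass the interaction test (adjusted p = 1.00). Relative to the median of all rows, the Rara change in PRC1CKO cells was -0.95.

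Rarb, the receptor whose own gene RA induces, rose in both lines. Its row spans 651 kb on chromosome 14 (16430840 to 17082331, minus strand, 8 exons). It had 346, 311 and 231 normalised reads in untreated PRC1CKO cells and 767, 481 and 556 after OHT. The other line, PRC1CPM, had 151, 132 and 174 untreated and 500, 346 and 305 after OHT. Treated and untreated libraries did not overlap in either line. The log2 fold change was 1.01 (SE 0.27, adjusted p = 0.0042 by limma) in PRC1CKO cells and 1.31 (SE 0.27, adjusted p = 0.0003) in PRC1CPM cells. In PRC1CKO cells the call was lost without untreated replicate 3 (0.85, adjusted p = 0.056) and without OHT replicate 1 (0.82, adjusted p = 0.077).

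Rarg, the receptor of cartilage and skin, was not called. It lies on chromosome 15 (102234938 to 102257522, minus strand, 10 exons). It had 1956, 1153 and 1091 normalised reads in untreated PRC1CKO cells and 1710, 1497 and 1660 after OHT. The PRC1CPM libraries had 1281, 735 and 1234 untreated and 1432, 888 and 1584 after OHT, and the groups overlapped in both lines. The log2 fold change was 0.26 in each line (SE 0.25), with a 95% confidence interval of -0.23 to 0.76 and adjusted p of 0.57 and 0.65 by limma.

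Crabp2, which carries RA to the nuclear receptors, was not called either. It lies on chromosome 3 (87948693 to 87953372, plus strand, 4 exons). It had 86.4, 77.7 and 71.0 normalised reads in untreated PRC1CKO cells and 108, 105 and 117 after OHT. PRC1CPM cells held 182, 114 and 126 untreated and 199, 98.2 and 178 after OHT. The PRC1CKO groups did not overlap and the PRC1CPM groups did. Limma gave a log2 fold change of 0.48 (SE 0.33, adjusted p = 0.37) in PRC1CKO cells and 0.14 (SE 0.33, adjusted p = 0.91) in PRC1CPM cells.

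**Figure D3:**
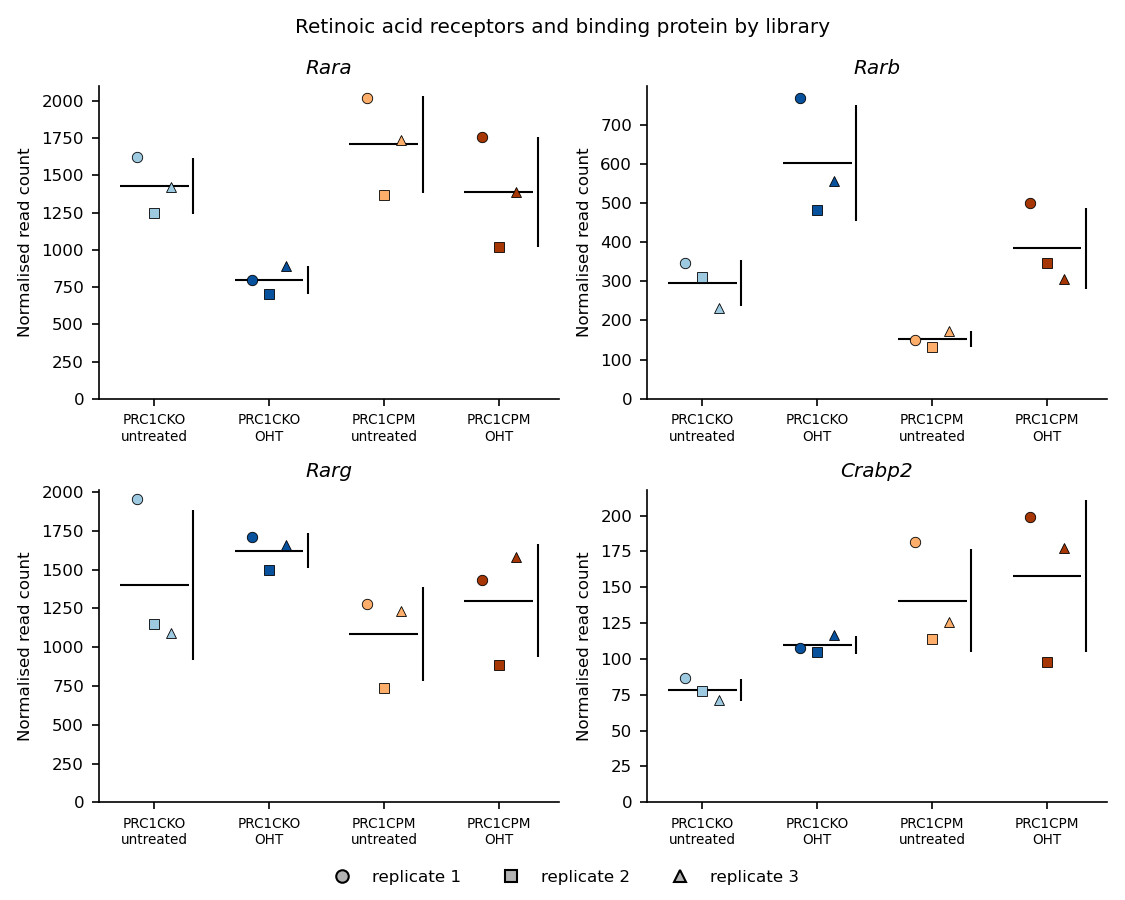
Normalised read counts (y axes, linear, from 0) of the 3 RA receptor genes and Crabp2 in each of the 12 libraries, by line and treatment. Symbols mark replicates 1 to 3, horizontal lines the means of 3 and vertical bars 1 SD on each side. The 3 treated PRC1CKO libraries lie between 705 and 892 for Rara, under the lowest other library at 1021, and between 481 and 767 for Rarb, above the untreated ones.

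Each receptor has a second, shorter row inside the first, so the 2 rows share reads. For Rara, the shorter row (98960471 to 98974942) held 73.4% of the reads of the longer one in untreated PRC1CKO cells and 61.1% after OHT. The share was 70.9% and 69.5% in PRC1CPM cells. The shorter row had 1193, 897 and 1056 normalised reads in untreated PRC1CKO cells and 447, 492 and 526 after OHT, a log2 fold change of -1.09 (SE 0.24, adjusted p = 0.00031 by limma). In PRC1CPM cells this row had -0.34 (SE 0.24, adjusted p = 0.46). The 22.8 kb of the longer row outside it had 428, 352 and 363 in untreated PRC1CKO cells and 353, 213 and 366 after OHT, and 587, 423 and 480 in untreated PRC1CPM cells and 526, 314 and 430 after OHT. The groups overlapped in both lines. The shorter Rarb row (16430840 to 16575476), at whose start the DR5 shown above lies, was called higher in both lines, by 0.92 (adjusted p = 0.038) in PRC1CKO and 1.48 (adjusted p = 0.00068) in PRC1CPM cells. The 507 kb outside it also held more reads after OHT, with means of 189 ± 44.4 (SD, n = 3) and 397 ± 115 in PRC1CKO cells and 103 ± 7.62 and 246 ± 85.0 in PRC1CPM cells. Gene-body counts do not assign reads to an isoform.

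**Figure D4:**
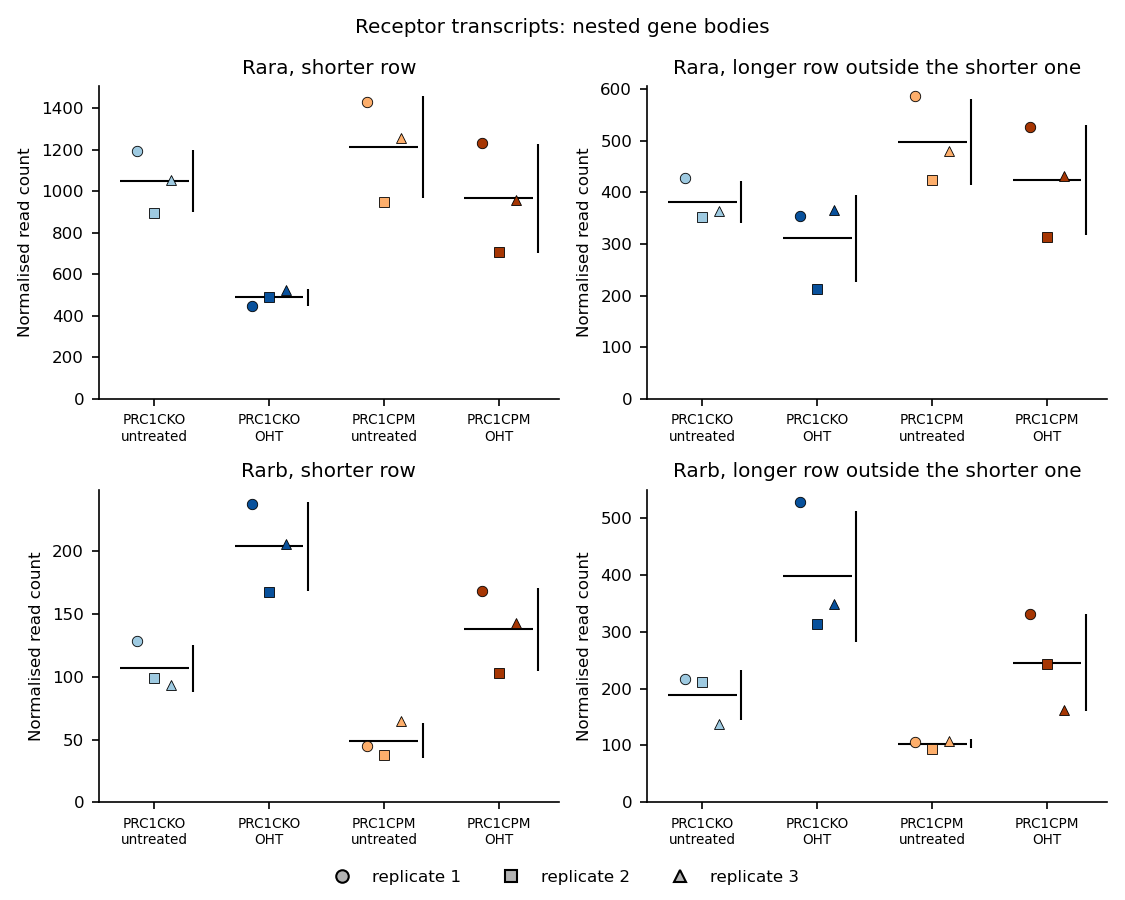
Normalised read counts (y axes, linear, from 0) in the shorter row of Rara and Rarb (left) and in the rest of the longer row (right), for each of the 12 libraries by line and treatment. Symbols mark replicates 1 to 3, horizontal lines means and vertical bars 1 SD on each side. The drop of Rara in treated PRC1CKO cells is seen in the shorter row, at 447 to 526 against 897 to 1193 untreated, while the rest of the longer row overlaps between treated and untreated libraries.

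Levels can be compared between genes only per length, here as normalised reads per kb of gene body. In untreated PRC1CKO cells the order was Rarg (62.0 ± 21.4, SD, n = 3), Rara (38.4 ± 5.00), Crabp2 (16.8 ± 1.65), Cyp26a1 (10.5 ± 8.26), Cyp26c1 (3.62 ± 1.18), Cyp26b1 (1.46 ± 0.23), Aldh1a2 (0.74 ± 0.13), Aldh1a3 (0.64 ± 0.52), Rarb (0.45 ± 0.09) and Aldh1a1 (0.024 ± 0.041). The neighbours Crabp2 and Cyp26a1, Cyp26a1 and Cyp26c1, Aldh1a2 and Aldh1a3, and Aldh1a3 and Rarb lie within 1 SD of each other. Reads in introns count towards these levels, and the Rarb body is by far the longest. After OHT in PRC1CKO cells Rarg stood at 71.8 ± 4.94, Crabp2 at 23.4 ± 1.37, Rara at 21.5 ± 2.50 and Cyp26a1 at 21.4 ± 4.31 per kb. Of the 3 receptors' summed level per kb, Rara made up 38.9% in untreated PRC1CKO cells and 22.7% after OHT, and Rarg 60.7% and 76.3%. In PRC1CPM cells Rara made up 49.2% and 39.2%. Rarb averaged 0.974% or less in every group, with a gene body of 651 kb against 37.2 kb for Rara and 22.6 kb for Rarg. The exons of these rows hold 2687, 3251 and 2958 bases, so the share depends on intron length. It does not give the share of mature RNA.

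The levels reached after OHT were then compared between the lines. No gene of the 9 was called, against 1.47% of all rows, and 2 passed an unadjusted p under 0.05, Rara higher and Rarb lower in PRC1CPM cells. The Rara difference was 0.77 (SE 0.23, adjusted p = 0.075 by limma), with no overlap between the lines. It was called with edgeR (adjusted p = 0.049), DESeq2 (adjusted p = 0.028), TMM (0.67, adjusted p = 0.0024) and the replicate number as a block (adjusted p = 1.25e-06). It was also called without any one of untreated replicates 1 and 2 of either line or OHT-treated PRC1CPM replicate 2 (adjusted p from 0.016 to 0.047). Removing an untreated library leaves this difference at 0.77 and changes only the shared spread and the adjustment over all rows. The 1380 rows tested on chromosome 11, where Rara lies, had a median 0.33 above that of all rows in this comparison, and its part in the difference was not tested. The median excess was also 0.33 between the untreated lines, in which Rara differed by 0.25 (SE 0.23, adjusted p = 0.78). The shorter Rara row was called higher in PRC1CPM cells, by 0.95 (adjusted p = 0.021). Rarb differed by -0.65 after OHT (SE 0.27, adjusted p = 0.31), with overlap between the lines, and it was called lower with the block (adjusted p = 0.003) and with TMM (-0.75, adjusted p = 0.023). Aldh1a2 differed by -0.044 (95% confidence interval -0.67 to 0.58) and Aldh1a3 by 0.32 (-0.61 to 1.25). Cyp26b1 differed by 0.24 (-0.50 to 0.99), on a chromosome whose 852 rows had a median excess of 0.20.

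Before treatment, 1 of the 9 genes was called between the lines, against 2.69% of all rows. Rarb was lower in untreated PRC1CPM cells, with a log2 difference of -0.94 (SE 0.27, adjusted p = 0.044 by limma) and no overlap between the lines. The call was lost with no filter (adjusted p = 0.079), without any one of untreated PRC1CKO replicates 1 and 2, the 3 OHT-treated PRC1CKO libraries, the 3 untreated PRC1CPM libraries and OHT-treated PRC1CPM replicate 3 (adjusted p from 0.052 to 0.14), and with the 4 libraries numbered 1 left out (0.062). Removing an OHT-treated library leaves this difference at -0.94 and changes only the shared spread and the adjustment over all rows. With the block the Rarb call held (adjusted p = 2.54e-06), and Crabp2 (0.81, adjusted p = 0.0046) and Cyp26a1 (0.75, adjusted p = 0.046) were called higher in PRC1CPM cells. Without the block these had adjusted p of 0.20 and 0.46. TMM called Crabp2 as well (0.70, adjusted p = 0.03), and Cyp26a1 was called without untreated PRC1CKO replicate 1 (1.34, adjusted p = 0.033). Chromosome 14, where Rarb lies, had a median 0.032 below that of all rows, and chromosomes 3 and 19, of Crabp2 and Cyp26a1, 0.031 and 0.022 below.

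The interaction of line and treatment asks whether OHT changed a gene differently in the 2 lines. None of the 9 genes was called by limma, edgeR or DESeq2, and none had an unadjusted p under 0.05 by limma, against 0.0236% of all rows called. The shorter Rara row, which is not among the 9, had a difference of 0.75 (SE 0.33, unadjusted p = 0.029, adjusted p = 1.00 by limma) and was called with the replicate number as a block (adjusted p = 0.017). The interval of the difference was -1.31 to 0.47 for Aldh1a2, -1.64 to 0.99 for Aldh1a3, -0.75 to 1.36 for Cyp26b1 and -0.48 to 1.07 for Rarb, on the log2 scale. Each of these last intervals includes 0 and reaches past a 1.5-fold difference on at least 1 side, so the lines are not shown to respond alike.

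The other genes of the pathway were counted in 5 lists, to be read against the 16.5% (PRC1CKO) and 13.1% (PRC1CPM) of all rows called higher, and the 3.09% and 1.4% called lower. In retinol uptake, transport and storage, 5 of 9 genes in the table were tested. Of these, 4 rose in each line, and the list's median log2 fold change was 1.24 in PRC1CKO and 1.34 in PRC1CPM cells, against 0.12 and 0.10 over all rows. The retinol-binding protein Rbp4 (1.55 in PRC1CKO, 1.53 in PRC1CPM) and the RA-binding protein Crabp1 (1.24 and 1.20) rose in both lines. The retinol-binding protein receptor Stra6 was called in PRC1CKO cells only (1.11, and 0.80 with adjusted p = 0.13 in PRC1CPM) and Lrat, which esterifies retinol, in PRC1CPM cells only (1.43, and 0.94 with adjusted p = 0.18 in PRC1CKO). These last 2 are named after their values were seen, and the differences were not called by the interaction test (adjusted p = 1.00 for both).

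Among the retinol and retinal oxidoreductases, 13 of 14 genes were tested, and the list's median was 0.04 in PRC1CKO and -0.02 in PRC1CPM cells. As a share of the list, 1 of 13 in PRC1CKO and 2 of 13 in PRC1CPM cells is near or below that of all rows. Adh7, a retinol-oxidising alcohol dehydrogenase, was the only one called in PRC1CKO cells (2.45, SE 0.51, adjusted p = 0.00017 by limma), and it rose in PRC1CPM cells too (2.12). Dhrs9, named after its value was seen, was called in PRC1CPM cells (2.22, adjusted p = 0.027) from 3.59 normalised reads on average untreated. Rdh10, the main embryonic retinol dehydrogenase, had 0.37 and 0.02 and was not called. Dhrs7 was called higher in untreated PRC1CPM than PRC1CKO cells (0.92, adjusted p = 0.041).

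Of the 8 receptor partners and alternative receptors, all tested, 4 rose in each line. They were the orphan receptor Rorb (3.65 in PRC1CKO, 2.28 in PRC1CPM), Rxrg (2.62 and 1.92), Fabp5, which can carry RA to another receptor (1.37 and 0.88), and Rxra (1.11 and 1.23), the main RXR of the early embryo. Rxra went from 1058 ± 209 normalised reads (SD, n = 3) to 2255 ± 104 in PRC1CKO cells. Rxrb, Ppard and Rora were not called. Of 10 receptor co-regulators, Nrip1, a ligand-dependent corepressor, was the only one called after OHT (0.74 in PRC1CKO, 0.65 in PRC1CPM), and 1 of 10 is below the share of all rows. Prame was called higher in untreated PRC1CPM cells (2.96, adjusted p = 0.015). The corepressor Ncor1 had 0.17 in PRC1CKO and -0.04 in PRC1CPM cells and was not called.

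Of 16 genes known to respond to RA, 12 rose in PRC1CKO and 14 in PRC1CPM cells, and none was called lower. The list's median was 2.16 in PRC1CKO and 1.84 in PRC1CPM cells. The orphan receptors Nr2f2 (4.92, SE 0.58 and 4.12) and Nr2f1 (4.59, SE 0.58 and 3.10) and the Hox cofactor Meis1 (3.93, SE 0.28 and 2.84) changed most in PRC1CKO cells. Tgm2 (-0.44 and 0.17) and Hoxb1 (0.61 and 1.24, with 7.33 or fewer normalised reads on average in each group) were called in neither line. Meis2 was lower in PRC1CPM than PRC1CKO cells both untreated (-1.13, adjusted p = 0.031) and after OHT (-2.84, adjusted p = 6.66e-09), and Cdx1 when untreated (-1.40, adjusted p = 0.015). The lists were written with earlier results of these data known, and many of these genes are also known Polycomb targets, so their counts are a description.

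**Figure D5:**
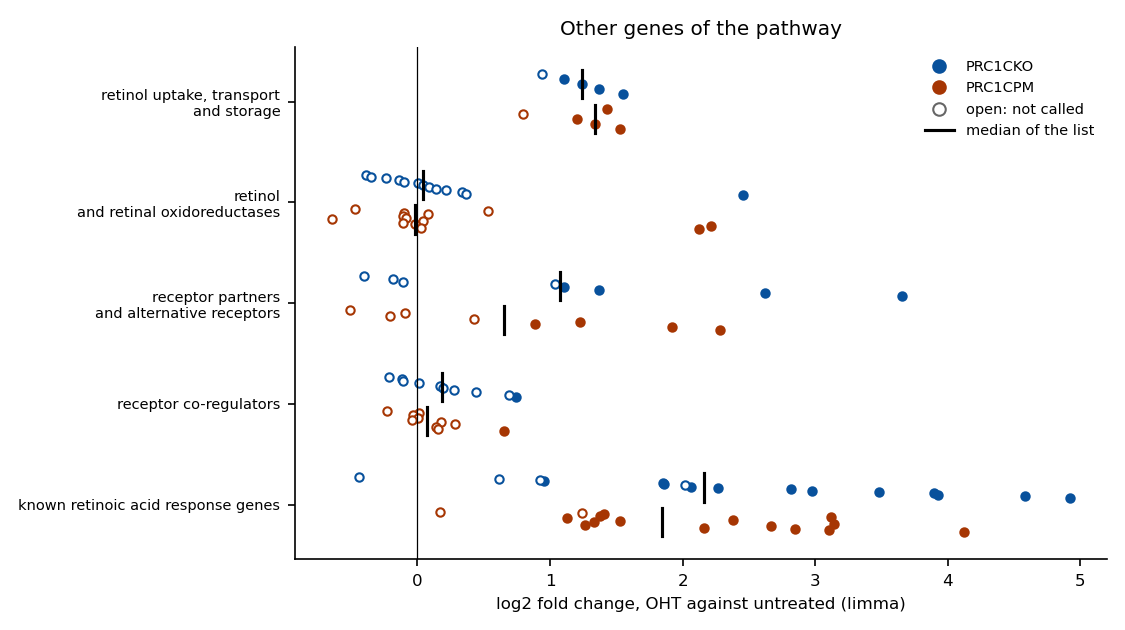
Log2 fold change after OHT (x axis, limma) of every tested gene in the 5 lists (y axis), in PRC1CKO (blue, upper of each pair) and PRC1CPM (brown, lower) cells. Filled points were called, open points were not, and vertical bars mark the list medians, which are 2.16 and 1.84 for the RA response genes and 0.04 and -0.02 for the oxidoreductases.

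The cells were checked against markers of ESCs and of other cell types. The 8 ESC markers were all tested and none was at 0 in all libraries. Their sum, to which Esrrb gave most over the 12 libraries together, was 69472, 55309 and 55405 normalised reads in untreated PRC1CKO cells and 45732, 48686 and 52891 after OHT. In PRC1CPM cells the sum was 53368, 44306 and 45386 untreated and 53081, 35766 and 53994 after OHT. After OHT, Sox2 was the only one called (-0.89 in PRC1CKO cells), and none was called in PRC1CPM cells. Tfcp2l1 was lower in untreated PRC1CPM than PRC1CKO cells (-0.88). In bulk RNA, fewer cells that express a gene cannot be told apart from less RNA of it per cell.

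Markers of other lineages went different ways, and their counts too are set against 16.5% and 13.1% of all rows called higher. Of 6 primitive endoderm markers tested, 4 rose in PRC1CKO and 6 in PRC1CPM cells. Their sum, to which Dab2 gave most over the 12 libraries together and Gata6 in OHT-treated PRC1CKO cells, was 1236, 722 and 434 in untreated PRC1CKO cells and 2975, 2301 and 2211 after OHT. The PRC1CPM sums were 583, 581 and 468 untreated and 1648, 1122 and 1443 after OHT. Of 5 neural progenitor markers, led by Nes, 4 rose in PRC1CKO and 2 in PRC1CPM cells, and the sum was 1356, 636 and 550 untreated and 2025, 1778 and 1773 after OHT in PRC1CKO cells. For PRC1CPM cells the sum stood at 1236, 1170 and 938 untreated and 2300, 1518 and 1124 after OHT. Of 4 mesoderm markers tested, of which Kdr was the most abundant over the 12 libraries together, 3 rose in each line and Tbx6 had -0.61 and -0.62 without being called, and the sum was 441, 189 and 211 untreated and 876, 628 and 694 after OHT in PRC1CKO cells. In PRC1CPM cells the sum was 409, 235 and 249 untreated and 909, 463 and 715 after OHT. Of 2 trophectoderm markers tested, Tfap2c was called lower in PRC1CKO cells (-0.66) and Cdx2 higher in PRC1CPM cells (1.71). That list's sum, led by Tfap2c, was 1515, 1662 and 1284 untreated and 1072, 1002 and 899 after OHT in PRC1CKO cells, and 926, 1031 and 927 untreated and 1473, 1055 and 1239 after OHT in PRC1CPM cells. Between the lines, Gata6 was lower in PRC1CPM cells after OHT (-1.78), and Sox7 (-2.26) and Sox1 (-1.40) when untreated. The part of these markers' cell types in the changes of the RA genes was not tested.

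Replicate 1 had the highest sum of fibroblast markers in each group, though by little in OHT-treated PRC1CKO cells. The sum of 5 such markers, led by Col1a1 and with none at 0, was 6335, 2276 and 3128 in untreated PRC1CKO cells (replicates 1, 2 and 3) and 4630, 3721 and 4057 after OHT. The PRC1CPM sums were 15374, 3990 and 5105 untreated and 16044, 5026 and 6931 after OHT. Thy1 was called higher after OHT in PRC1CKO cells (0.65) and no other marker of the 5 was called after OHT. Between the lines, Col1a1 was higher in PRC1CPM cells after OHT (1.44) and Col1a2 when untreated (1.38). Untreated replicate 1 was also the highest in both lines for Aldh1a1, Aldh1a3, Cyp26a1, Rara, Rarg and Crabp2. The total over all rows was highest in replicate 1 of every group, treated groups included. Untreated, it was 24958331 normalised reads against 17618069 and 17755844 in PRC1CKO cells and 24373383 against 19075822 and 19883420 in PRC1CPM cells. After OHT it was 22092158 against 19476946 and 20939764 in PRC1CKO cells and 26077686 against 17909909 and 21836456 in PRC1CPM cells. The part of these totals in the results was not tested. With the 4 libraries numbered 1 left out, Aldh1a2, Aldh1a3, Cyp26a1, Cyp26b1 and Rarb were again called higher and Rara lower in PRC1CKO cells, and Aldh1a2, Aldh1a3, Cyp26b1 and Rarb higher in PRC1CPM cells. Cyp26a1 then had 1.71 in PRC1CKO cells (adjusted p = 0.0035 by limma) and 0.96 in PRC1CPM cells (adjusted p = 0.14).

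The nearest rows on either side of each gene, up to 579 kb away, are given as a description. No row of another symbol overlapped any of the 10 genes. Lrrk1, a kinase gene on the same strand, starts 2.55 kb past the end of Aldh1a3 and rose in both lines, by 2.21 (SE 0.31, adjusted p = 1.52e-07 by limma) in PRC1CKO and 1.68 in PRC1CPM cells. On its other side, Asb7 lies 217 kb away and had -0.09 and 0.03. Thrb, the thyroid hormone receptor beta gene, lies 579 kb before the longer Rarb row on the other strand and rose by 3.05 and 1.69. Top2b, on the other strand, ends 0.052 kb from the end of Rarb and had -0.22 and -0.04. Myof, 197 kb past Cyp26a1, rose by 0.95 and 0.97, whereas Exoc6, 2.43 kb before Cyp26c1, had -0.35 and -0.15. Cdc6, 13.8 kb before Rara, had -0.12 and -0.10, and Polr2m, 182 kb past Aldh1a2, had -0.08 and -0.02. Nes, 17.7 kb past Crabp2, rose in PRC1CKO cells (1.28) and had 0.45 in PRC1CPM cells (adjusted p = 0.36), while Isg20l2 on the other side had -0.01 and 0.13. Neither neighbour of Rarg was called, nor was Gm5878, 518 kb from Cyp26b1 (0.19 and 0.18). Gm10445, 148 kb from Cyp26b1, Gm3458, 0.547 kb before Aldh1a2, and Gjd3, 7.24 kb past Rara, had too few reads to be tested. So had both neighbours of Aldh1a1.

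For the 6 genes called, the symbols whose log2 levels followed theirs most closely over the 12 libraries are given as a description. The libraries share 4 conditions, their size factors and the replicate numbers, and the 3 highest of 15791 symbols were taken. Aldh1a2 was followed most closely by Cebpa (Pearson r = 0.99), Lhx2 (0.98) and Tlx1 (0.98), which themselves had 2.33, 3.92 and 3.35 in PRC1CKO cells. Aldh1a3 was followed by Hand1, St8sia2 and T (0.98 each), and Cyp26b1 by Kcng3, Vwa2 and Rspo1 (0.98 each). Cyp26a1 was followed by Kdf1, Trib2 and 9630033F20Rik (0.98 each), of which 9630033F20Rik had only 0.35 in PRC1CKO cells. Rarb was followed by Ccdc3 (0.97), Necab1 (0.96) and Ppap2b (0.95). Rara was followed by Neil2 (0.98), Zfp2 (0.98) and 0610040F04Rik (0.97), with -1.08, -0.90 and -1.41 in PRC1CKO cells and -0.36, -0.36 and -0.82 in PRC1CPM cells.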

How the data were processed

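The authors removed rDNA reads with Bowtie 2, aligned the rest to mm10 and dm6 with STAR and then Bowtie 2, kept unique reads, removed duplicates with Sambamba and counted reads over gene bodies (whether strand was used in counting is not given in the sources used here). The authors' deposited signal, the normalised read count, is the count divided by a DESeq2 size factor from Drosophila reads, corrected by matched gDNA-seq. The authors' own fold changes and adjusted p-values in the same table, and their list of partially derepressed genes, were not used, and the 12 gDNA-seq libraries were not analysed here. Gene-body length and position are as deposited, with 1 added to the start.

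In every library 100% of values were whole multiples of 1 step (tolerance 0.02 reads), which gave the reads. Low read numbers were mostly even, as when both mates of a pair are counted, so reads are not independent molecules. Log2(normalised read count + 1), the scale of all fold changes but those credited to edgeR or DESeq2 and the Aldh1a1 read ratios, went into limma 3.58.1 (R 4.3.3). The model had 1 mean per condition and let the prior variance follow the mean level, p-values were adjusted by Benjamini-Hochberg over 16940 rows, and the steps were checked on simulated data. p-values measure the spread between replicate cultures of 1 clone per line. Same-numbered replicates deviated together in PRC1CPM cells (r = 0.25 to 0.44), between OHT-treated (0.14 to 0.23) and between untreated lines (0.19 to 0.38), so the blocked fit is given beside those results where it changes a call. Alternatives were edgeR 4.0.16, DESeq2 1.42.0, TMM, no filter, a pseudocount of 0.1, the block, a 2-fold threshold, 1 line alone, each library left out, and, chosen after seeing the data, no libraries numbered 1. From each list, up to 3 called genes per direction with the largest PRC1CKO change were named. Other list genes and markers named with values were chosen after their values were seen. Some genes counted in the lists are not reported here by name. Members and lists were chosen with earlier results of these data known. Python 3.11.15 with pandas 2.3.3 made the summaries.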

Additional observations from a re-analysis of the deposited data

How the results depend on the processing

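Over the fold changes of single members, 805 recomputed values left their direction and side of the threshold as they were, 22 ended a call, 23 made one and 23 turned a direction. Depth limits Aldh1a1, which had 2 libraries with 10 or more reads. Scaling without the gDNA-seq correction was not run. The cause of these shifts was not tested.

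TMM moved the median of all rows from 0.12 to -0.0019 in PRC1CKO and from 0.10 to -0.0072 in PRC1CPM cells, and turned no member. With TMM, rows called lower were 1133 in PRC1CKO and 595 in PRC1CPM cells, and rows called between lines 785 after OHT and 1050 untreated, with 14 for the interaction. With TMM 2 members were called between lines after OHT and 2 untreated. With the replicate block, rows called lower were 823 and 461, and those called 1363, 1884 and 324, with 2 members after OHT and 3 untreated. In PRC1CKO cells same-numbered replicates deviated together more weakly (r = 0.099 to 0.18), 1 pair falling short of the r of over 0.1 required here to treat numbers as pairs, and the block also called Cyp26c1 (adjusted p = 0.0056). A 2-fold threshold left 271 and 125 rows called lower, 0 members lower in PRC1CKO and 0 between untreated lines. After OHT between lines, DESeq2 called 429 rows and 1 member, edgeR 1 member, and no filter 157 rows. No filter called 0 interaction rows and 0 members between untreated lines. DESeq2 called 15 interaction rows and a pseudocount of 0.1 called 1. Without the libraries numbered 1, 144 and 788 rows were called between lines after OHT and untreated, and 0 members untreated.

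Leaving out 1 library at a time gave 326 to 674 rows lower in PRC1CKO cells, 1439 to 2547 higher and 123 to 339 lower in PRC1CPM cells, 116 to 477 between lines after OHT, 244 to 1570 untreated and 1 to 28 for the interaction. Members called ranged from 3 to 6 higher in PRC1CKO cells, from 0 to 1 between lines after OHT and from 0 to 1 untreated. Without untreated PRC1CKO replicate 3 or OHT replicate 1, 3 members were called higher.

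No reversed value passed the threshold. Aldh1a2 between lines after OHT turned to 0.00032 with edgeR and 0.075 without the libraries numbered 1, and ranged from -0.30 to 0.19 with 1 library left out. With 1 library left out, Cyp26b1 between untreated lines ranged from -0.21 to 0.11 (0.041 without the libraries numbered 1) and Crabp2 in PRC1CPM cells from -0.060 to 0.45. The interaction then ranged from -0.93 to 0.26 for Aldh1a3, -1.01 to 0.00027 for Cyp26a1, -0.31 to 0.15 for Cyp26c1 and -0.27 to 0.26 for Rarg, which had -0.17 without the libraries numbered 1.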
